A study of Mus musculus with 64 samples.

Results

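Neat1, Malat1 and the paraspeckle protein genes Sfpq, Nono and Pspc1 were followed across 6 psychotropic drugs in the mouse nucleus accumbens (NAc) and prefrontal cortex (PFCx). The members were chosen by gene symbol, and they comprise 5 genes with 25 annotated transcripts, of 46785 genes and 112714 transcripts in the tables. Neat1 and Sfpq were chosen because a transcript of each differed between drugs and saline in these same libraries. Their levels after the drugs are therefore described without a test, and tests were run on Malat1, Nono, Pspc1, the other genes of the pathway and the tissue difference after saline.

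Neat1 and Malat1 are long non-coding RNAs that stay in the nucleus, and their genes lie side by side. The long Neat1 transcript is the scaffold of paraspeckles, nuclear bodies that hold RNA-binding proteins and certain RNAs, whereas the short transcript starts at the same promoter, ends at an upstream polyadenylation site and does not build paraspeckles on its own. SFPQ, NONO and PSPC1 form a family of RNA-binding proteins that bind Neat1 RNA, and SFPQ and NONO are needed for paraspeckles to assemble. Malat1 RNA is a marker of nuclear speckles, the bodies rich in splicing factors, and is among the most abundant nuclear RNAs of neurons.

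Ribo-depleted total RNA was sequenced from adult male C57BL/6N mice aged 8 to 10 weeks, 2 h after 1 intraperitoneal injection. The 64 libraries hold 4 per drug and tissue and 8 saline libraries per tissue, which the labels divide into saline I and saline II. The doses were 1 mg/kg haloperidol, 0.5 mg/kg risperidone, 20 mg/kg mianserin, 16 mg/kg venlafaxine, 2 mg/kg methamphetamine and 20 mg/kg ketamine. Haloperidol and risperidone are antipsychotics that block dopamine receptors, and their saline vehicle contained a drop of HCl, so drug and vehicle cannot be told apart for them. Mianserin and venlafaxine are antidepressants, methamphetamine is a psychostimulant that releases dopamine, and ketamine blocks NMDA receptors. Tissue was dissected from slices, and the labels do not tie a library of the NAc to a library of the PFCx.

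Values are FPKM, fragment numbers scaled to the length of the transcript and to the size of the library, and the level of a gene is the sum over its transcripts. The tables hold no counts, and the aligned bases estimated from coverage ranged from 1.98 to 3.26 gigabases in the NAc and from 1.52 to 2.95 in the PFCx. Between 85287 and 87827 transcripts were above 0 in NAc libraries of a first sample set (saline I, methamphetamine, haloperidol, risperidone), and between 107099 and 110556 in those of a second (saline II, ketamine, mianserin, venlafaxine). A drug and its sample set cannot be told apart except through the 4 saline libraries of the same set. The labels name a set for saline only, and the set of each drug was read from these NAc numbers. In the PFCx the numbers did not separate the sets, with 108878 to 110852 in the first and 108556 to 110620 in the second. The PFCx sets were therefore carried over from the NAc, and same-set comparisons in both tissues rest on this inference. Saline I and saline II did not overlap for 29.9% of all genes in the NAc and for 13.3% in the PFCx, so most ratios are also given against saline of the same set. The defining markers of both tissues were present. The summed FPKM of 6 medium spiny neuron markers was 232 to 411 in the NAc and 15.3 to 52.6 in the PFCx, and that of 5 cortical projection neuron markers was 24.6 to 82.0 in the NAc and 156 to 224 in the PFCx. In such bulk tissue, fewer cells of a type and less RNA per cell cannot be told apart.

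The Neat1 gene lies on the minus strand of chromosome 19 of GRCm38, at chr19:5824708-5845478. The long transcript, ENSMUST00000173672, has 20771 bases in 1 exon. The short transcript, ENSMUST00000174287, has 3004 bases in 2 exons, and another short model, ENSMUST00000174829, has 1030 bases. The end of the short transcript is shown because it is the point at which both forms part. It holds the polyadenylation signal AATAAA, in capitals, 14 bases before the cleavage end, and the long transcript runs through the same stretch for another 17599 bases.
End of short Neat1, chr19:5842307-5842351: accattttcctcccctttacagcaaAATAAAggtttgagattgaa
Long Neat1 across that end, chr19:5842262-5842351: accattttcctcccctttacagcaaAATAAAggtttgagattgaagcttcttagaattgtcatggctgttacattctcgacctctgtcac
The letters AATAAA stand in the last 40 bases of 25.8% of the 141767 transcripts of GENCODE vM21, read on the transcribed strand.

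Malat1 lies downstream on the same strand, at chr19:5795690-5802672, and its main transcript ENSMUST00000172812 has 6983 bases in 1 exon. Both RNAs end in a stretch known to fold into a triple helix that protects an end without a poly(A) tail, and the stretches are shown because long Neat1 shares this feature with Malat1 and short Neat1 does not. The capitals mark the 3 runs of at least 11 bases that the ends of both RNAs share in this order, TTTCTTTTCCTGA, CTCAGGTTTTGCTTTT and the A-rich AAAAAGCAAAA.
End of long Neat1, chr19:5824708-5824797: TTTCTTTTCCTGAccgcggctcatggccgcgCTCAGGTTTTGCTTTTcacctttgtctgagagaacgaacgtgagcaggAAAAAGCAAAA
Matching stretch of Malat1, chr19:5795982-5796065: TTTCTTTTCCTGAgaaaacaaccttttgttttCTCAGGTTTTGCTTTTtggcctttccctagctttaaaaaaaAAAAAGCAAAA
Among the 141767 transcripts, read on the transcribed strand, the 3 runs in this order with at most 100 bases between neighbours were found in 2, the main transcripts of Neat1 and Malat1. Since the runs were taken from these RNAs, their own matches are no finding. Long Neat1 ends with the A-rich run, whereas the annotated Malat1 transcript continues for 292 bases. Of the 25 member transcripts, 24 have a type in this annotation, and all 25 passed the filter on low values, a mean of 0.1 FPKM or more in the NAc or the PFCx.

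**Figure D1:**
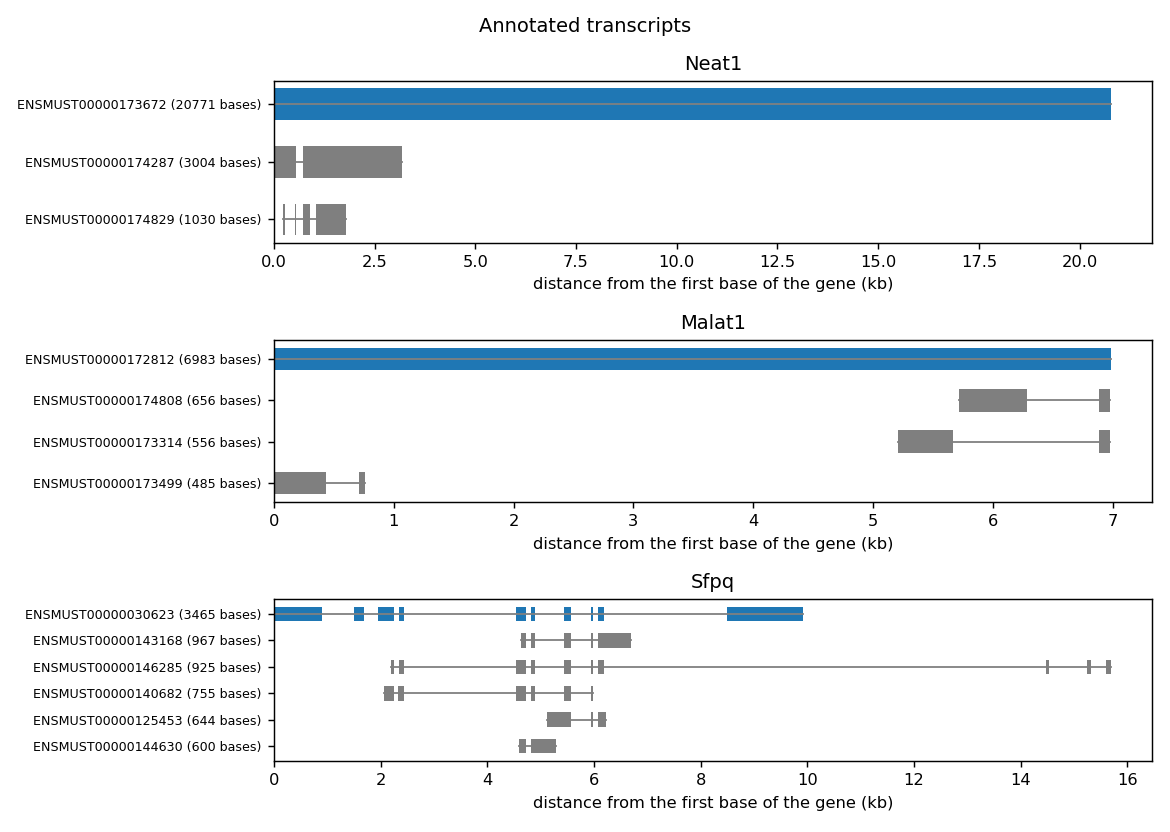
Annotated exons (boxes) and introns (lines) of the Neat1, Malat1 and Sfpq transcripts in GENCODE vM21, by distance in kb from the first base of the gene, with the longest or coding transcript of each gene in blue. The short Neat1 transcripts lie within the first part of the long one, and 4 of the 5 Malat1 transcripts are in this annotation.

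After saline the members differed in level by far more than their spread. In the NAc the mean summed FPKM was 1529 ± 74.6 (SD, n = 8) for Malat1, 39.9 ± 2.98 for Sfpq, 19.3 ± 1.61 for Nono, 8.69 ± 1.61 for Pspc1 and 4.22 ± 0.340 for Neat1. The order was the same in the PFCx, with 1347 ± 108 for Malat1, 34.9 ± 3.09 for Sfpq, 20.2 ± 4.01 for Nono, 10.97 ± 1.01 for Pspc1 and 3.05 ± 0.223 for Neat1. No neighbours in this order overlapped between their 8 saline libraries in either tissue. Malat1 ranked between 10 and 22 among all genes in the NAc libraries and between 17 and 39 in the PFCx libraries.

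The tissue difference after saline was tested with limma on log2(summed FPKM + 1), with Benjamini-Hochberg adjustment over 37034 genes. Of the 5 members 4 passed an adjusted p of 0.05, whereas 45.7% of all genes passed, and the median log2 difference of all genes was -0.10 (NAc minus PFCx). Neat1 was higher in the NAc by 0.36 (log2, SE 0.061, adjusted p = 2.8e-06), a ratio of 1.38. Malat1 was higher in the NAc by 0.19 (log2, SE 0.038, adjusted p = 7.1e-05) and Sfpq by 0.19 (SE 0.053, adjusted p = 0.0037). Pspc1 was lower in the NAc, with a log2 difference of -0.32 (SE 0.086, adjusted p = 0.0023). For Nono the log2 difference was -0.04 (95% interval -0.21 to 0.13, adjusted p = 0.69). Within saline II alone the log2 difference of Pspc1 was -0.22 (limma, adjusted p = 0.20), and with a mean-variance trend in limma Malat1 had an adjusted p of 0.11. Oligodendrocyte markers moved with the tissue, since the summed FPKM of all 4 was 487 to 667 in NAc saline and 124 to 175 in PFCx saline, with none at 0. Their part in the difference was not tested.

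The short Neat1 transcripts carried the tissue difference of Neat1. The long transcript had a mean FPKM of 0.897 ± 0.0491 (SD, n = 8) for NAc saline and 0.879 ± 0.0489 for PFCx saline, a log2 difference of 0.01 in the fit over 86331 transcripts (limma, 95% interval -0.06 to 0.08, adjusted p = 0.83). ENSMUST00000174287 had a mean FPKM of 3.06 ± 0.416 (NAc) and 1.98 ± 0.377 (PFCx), a log2 difference of 0.45 (SE 0.090, limma, adjusted p = 0.00013). Of all transcripts 22.4% passed in this comparison. For ENSMUST00000174287 the log2 difference was 0.56 within saline I (limma, adjusted p = 0.00095). Within saline II it was 0.34 and did not pass (limma, adjusted p = 0.079). The share of the summed Neat1 FPKM held by transcripts under 10000 bases was 78.7% ± 1.60 (NAc) and 71.1% ± 2.66 (PFCx). All 8 NAc values, from 76.5% to 80.4%, lay above all 8 PFCx values, from 67.8% to 75.3%. The difference of 7.60 percentage points had p = 0.00016 in a two-sided exact permutation test, the smallest that 8 against 8 libraries can give. It was 8.80 points within saline I and 6.395 within saline II, each with an exact permutation p of 0.029, the smallest for 4 against 4.

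Among the 6 drugs, mianserin was followed by the highest levels of long Neat1 in both tissues. In the NAc the FPKM of the long transcript was 1.52, 1.46, 1.75 and 1.43 in the 4 mianserin libraries. The 8 saline libraries ranged from 0.837 to 0.976 with a median of 0.886. All 4 mianserin libraries lay above all saline libraries, and the ratio of the means was 1.72, or 1.75 against saline II of the same sample set. Of all transcripts 0.858% had 4 mianserin libraries above the saline range in the NAc. The lower confidence bounds that Cufflinks gave for the mianserin libraries were at least 1.29, and the upper bounds of the saline libraries reached 1.08.

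In the PFCx the long transcript stood at 1.22, 1.38, 1.47 and 1.31 after mianserin. The saline libraries ranged from 0.801 to 0.974 with a median of 0.874. Again no library overlapped, with a ratio of 1.53, or 1.56 against saline II, and 0.444% of all transcripts had 4 mianserin libraries above the saline range. The lowest bound after mianserin was 1.09 and the highest bound after saline 1.08.

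Short Neat1 did not follow the same pattern after mianserin in the NAc. Summed over the transcripts under 10000 bases, it had an FPKM of 2.36, 3.18, 3.31 and 3.35, against 2.89 to 3.85 with a median of 3.26 after saline. These ranges overlapped, and the ratio of the means was 0.918, or 0.970 against saline II. In the PFCx the values after mianserin were 3.67, 2.74, 2.53 and 2.61, all above the saline range of 1.85 to 2.44, with a ratio of 1.33, or 1.31 against saline II. Consequently the short share in the NAc was 66.2% ± 4.05 (SD, n = 4) after mianserin, from 60.9% to 70.0%, and all 4 libraries lay below the saline range. In the PFCx the share was 67.8% ± 5.08, and 3 of 4 libraries lay below the saline range. The summed FPKM of Neat1 gives little sign of the long transcript in the NAc, since its ratio to saline was 1.09 after mianserin and 1 of 4 libraries lay above the saline range. In the PFCx the same ratio was 1.39 and all 4 libraries lay above, as for 0.57% of all genes. Short Neat1 also lay above there, as did 0.444% of all single transcripts. The Cufflinks bounds of ENSMUST00000174287 overlapped in the PFCx, with a lowest of 1.87 after mianserin and a highest of 2.80 after saline. Oligodendrocyte marker sums after mianserin were 512 to 540 in the NAc, inside the saline range, and 159 to 184 in the PFCx, against 124 to 175 after saline, and their part was not tested.

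**Figure D2:**
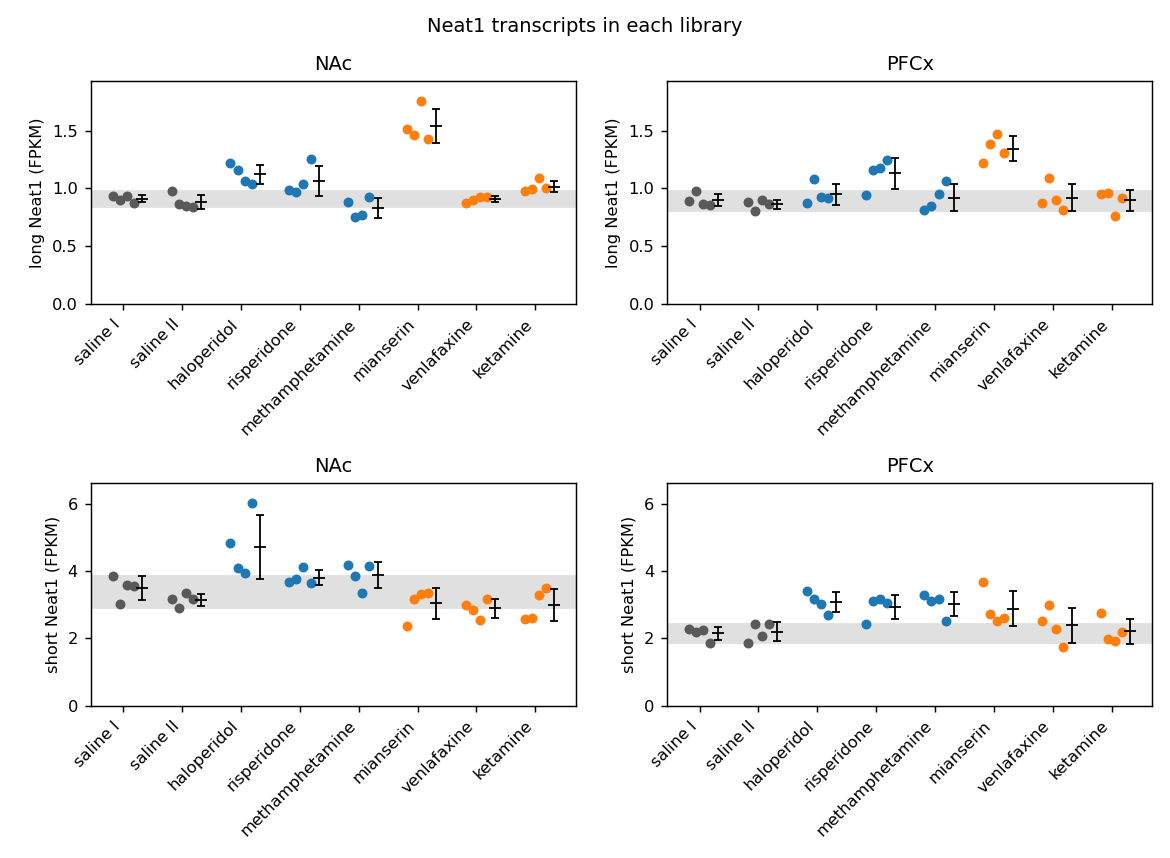
FPKM of the long Neat1 transcript (top) and of the short transcripts summed (bottom) in each library of the NAc and PFCx. Each point is a library (gray saline, blue drugs of the set of saline I, orange drugs of the set of saline II), the bar is the mean ± SD of 4 and the gray band spans the 8 saline libraries. The mianserin libraries lie between 1.43 and 1.75 for the long transcript in the NAc, whereas the haloperidol libraries lie above the band for the short transcripts in both tissues.

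Haloperidol was followed by higher short Neat1 in both tissues. The FPKM of short Neat1 in the NAc was 4.85, 4.11, 3.94 and 6.03 after haloperidol, and the highest saline library had 3.85. No library overlapped, the ratio to saline was 1.42, and replicate 4 was the highest of all NAc libraries. The values in the PFCx were 3.40, 3.17, 3.03 and 2.69, above the highest saline value of 2.44, with a ratio of 1.41. Relative to saline I alone the ratios were 1.35 and 1.43. The Neat1 sum after haloperidol also lay wholly above saline in both tissues, as for 0.718% of all NAc genes and 0.562% of all PFCx genes. The Cufflinks bounds of ENSMUST00000174287, the main short transcript, did overlap. Its lowest bound after haloperidol was 3.15 (NAc) and 2.16 (PFCx), against a highest of 4.44 and 2.80 after saline. The long transcript was at 1.22, 1.16, 1.07 and 1.04 after haloperidol in the NAc, all above saline, and at 0.871 to 1.08 in the PFCx, where 1 of 4 lay above. Thus 0.425% of all transcripts had 4 haloperidol libraries above the saline range in the NAc. For the long transcript in the NAc the lowest bound after haloperidol was 0.925, below the highest of 1.08 after saline. The cortical projection neuron markers summed to 61.1 to 82.0 in the NAc haloperidol libraries and to 24.6 to 68.4 after saline. The low end of this saline range came from saline II, at 24.6 to 45.5, which lay below all saline I libraries. The mean was 71.4 after haloperidol, against 61.2 in saline I of the same set and 48.3 in all saline libraries. The 3 endothelial markers summed to 10.3 to 11.3 after haloperidol in the NAc, below all saline libraries, which held 11.6 to 13.8. No marker of either list was at 0 in every library, and their part was not tested.

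Risperidone gave higher long Neat1 in most libraries. In the NAc the long transcript was at 0.989, 0.968, 1.04 and 1.25, with 3 of 4 libraries above all 8 saline libraries. In the PFCx it was at 0.941, 1.16, 1.18 and 1.25, again with 3 of 4 above. The ratios to saline were 1.18 and 1.29, or 1.17 and 1.26 against saline I. Short Neat1 after risperidone had a ratio of 1.15 in the NAc, with 1 of 4 libraries above saline, and 1.35 in the PFCx, with 3 of 4 above. The PFCx sum lay above saline in all 4 libraries, with a ratio of 1.33, and 0.794% of all genes had 4 risperidone libraries above. Against saline I the ratios of short Neat1 were 1.09 (NAc) and 1.37 (PFCx). The 3 endothelial markers summed to 9.35 to 11.4 in the NAc after risperidone, below the 11.6 to 13.8 of saline, and their part was not tested.

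Methamphetamine was followed by a higher short share in the NAc. The share was 82.4% ± 1.04, from 81.3% to 83.7%, and all 4 libraries lay above the saline range. The long transcript had a ratio of 0.928 there, or 0.913 against saline I, with 2 of 4 libraries below saline. The 4 microglia markers summed to 16.2 to 17.6 in these libraries and to 17.8 to 20.4 after saline, without overlap, and their part was not tested. In the PFCx short Neat1 was at 3.30, 3.11, 3.17 and 2.51, all above saline, with a ratio of 1.39, or 1.41 against saline I, while the long transcript overlapped saline with a ratio of 1.05, or 1.03 against saline I. The PFCx sum was 1.29 times that of saline with 4 of 4 above, as for 0.505% of all genes. The lowest Cufflinks bound of ENSMUST00000174287 there was 2.06, below the highest of 2.80 after saline.

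After ketamine the long transcript was at 0.977, 0.993, 1.09 and 1.00 in the NAc, just above the highest saline value of 0.976, with a ratio of 1.13, or 1.15 against saline II. Of all transcripts 0.879% had 4 ketamine libraries above the saline range in the NAc. The lowest Cufflinks bound of long Neat1 after ketamine there was 0.858, below the highest of 1.08 after saline. In the PFCx the ketamine ratio was 1.02 and the venlafaxine ratio 1.05, with overlapping libraries, and the venlafaxine ratio in the NAc was 1.01. Against saline II these ratios were 1.04, 1.07 and 1.03. Over the 12 comparisons, the 4 drug libraries of long Neat1 lay wholly outside the saline range in 4: mianserin in both tissues, and haloperidol and ketamine in the NAc. Against the 4 saline libraries of the same sample set the number was 5, as risperidone in the NAc joined them. The share of all transcripts above those 4 libraries was 2.02% for mianserin, 1.39% for haloperidol, 2.65% for ketamine and 1.57% for risperidone in the NAc, and 2.22% for mianserin in the PFCx. All drug comparisons of a tissue share its saline libraries.

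**Figure D3:**
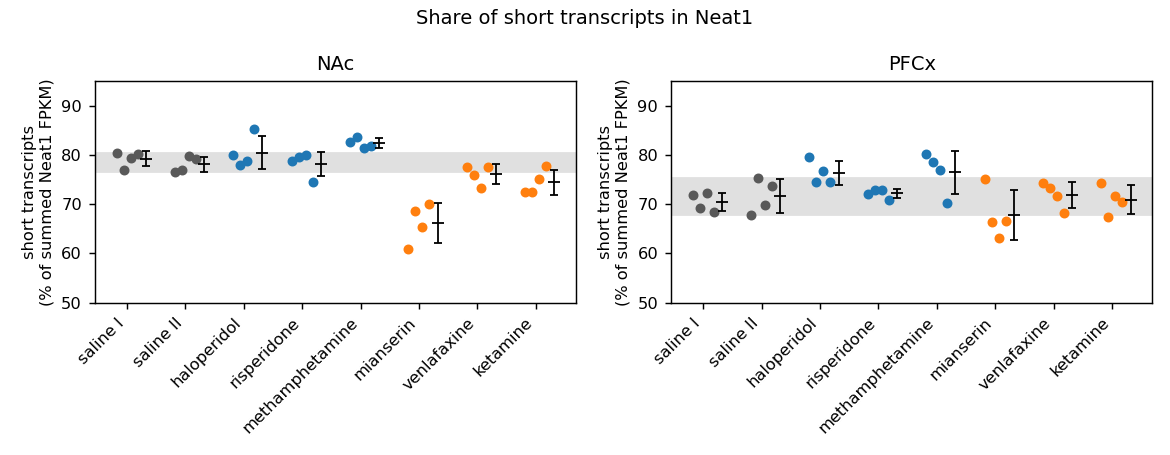
Percent of the summed Neat1 FPKM held by transcripts under 10000 bases in each library, with points, bars and band as in the plot of Neat1 levels and an axis that starts at 50%. The 4 NAc mianserin libraries lie between 60.9% and 70.0%, below the saline band, and the 4 NAc methamphetamine libraries lie above it.

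Sfpq encodes a splicing and transcription factor of paraspeckles, and its gene on the plus strand of chromosome 4 has 6 transcripts in the tables. The coding transcript ENSMUST00000030623, at chr4:127021324-127031236, has 3465 bases in 10 exons. The summed FPKM in the NAc was 30.98, 32.41, 32.05 and 32.87 after mianserin, against 35.1 to 43.6 with a median of 40.6 after saline. All 4 mianserin libraries lay below all saline libraries, with a ratio of 0.805, or 0.768 against saline II. Of all genes 0.529% had 4 mianserin libraries below the saline range in the NAc. In the PFCx the sum was 27.1, 28.8, 31.4 and 36.6, and 3 of 4 libraries lay below the saline range of 31.6 to 41.3.

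The coding transcript of Sfpq was low after mianserin in both tissues. Its FPKM in the NAc was 12.4, 12.8, 12.7 and 12.1, below the saline range of 13.6 to 16.4, with a ratio of 0.844, or 0.823 against saline II, and 0.514% of all transcripts had 4 mianserin libraries below. The Cufflinks bounds overlapped there, with a highest of 13.8 after mianserin and a lowest of 12.5 after saline. In the PFCx the coding transcript was at 11.3, 11.1, 10.6 and 11.5, and 3 of 4 libraries lay below the saline range of 11.4 to 15.0, with a ratio of 0.841. All 4 lay below saline II, as for 3.93% of all transcripts, with a ratio of 0.792. The coding transcript was higher in saline II than in saline I of the PFCx without overlap (13.4 to 15.0 against 11.4 to 12.9), and 10.2% of all transcripts had such a gap there. Ketamine had a ratio of 0.945 in the PFCx with no library below the saline range, and of 0.891 against saline II with all 4 below, as for 4.11% of all transcripts. Risperidone was followed by 11.3, 11.1, 11.1 and 10.2 in the PFCx, all below saline with a ratio of 0.825, as for 0.521% of all transcripts, and by a ratio of 0.899 in the NAc with 3 of 4 below. Against saline I these ratios were 0.879 and 0.922. The Cufflinks bounds overlapped in the PFCx, with a highest of 12.2 after risperidone and a lowest of 10.4 after saline. Methamphetamine and ketamine had ratios of 1.12 each in the NAc, with 3 of 4 and 2 of 4 libraries above saline, and of 1.15 and 1.09 against saline of their own sets.

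The processed transcript ENSMUST00000140682 of Sfpq, which has 755 bases and no annotated coding sequence, stood further from saline than the coding transcript in the NAc. In the NAc it was at 3.54, 3.51, 4.00 and 3.69 after mianserin and between 7.59 and 10.4 after saline, a ratio of 0.427, or 0.419 against saline II. After haloperidol it was at 5.31 to 7.38, also below all saline libraries, with a ratio of 0.792, or 0.807 against saline I, as for 0.52% of all transcripts below the 8 saline libraries. In the PFCx its mianserin values of 5.44 to 8.40 overlapped the saline range of 6.21 to 9.98. The second exon begins 24 bases upstream of the matching exon of the coding transcript. These bases, chr4:127023650-127023673, are shown in capitals with 20 bases on each side in the transcript, because the coding transcript lacks them.
Sfpq ENSMUST00000140682: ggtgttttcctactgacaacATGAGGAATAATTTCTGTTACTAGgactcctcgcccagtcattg
Cufflinks divided the reads of shared exons by likelihood, with a median half-width of the confidence interval of 23.9% of its FPKM, against 7.99% for the coding transcript. Its level is therefore less certain than that of the gene sum. The coding transcript made up 39.0% ± 1.44 of the Sfpq sum in the NAc after mianserin and 37.2% ± 1.34 after saline.

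**Figure D4:**
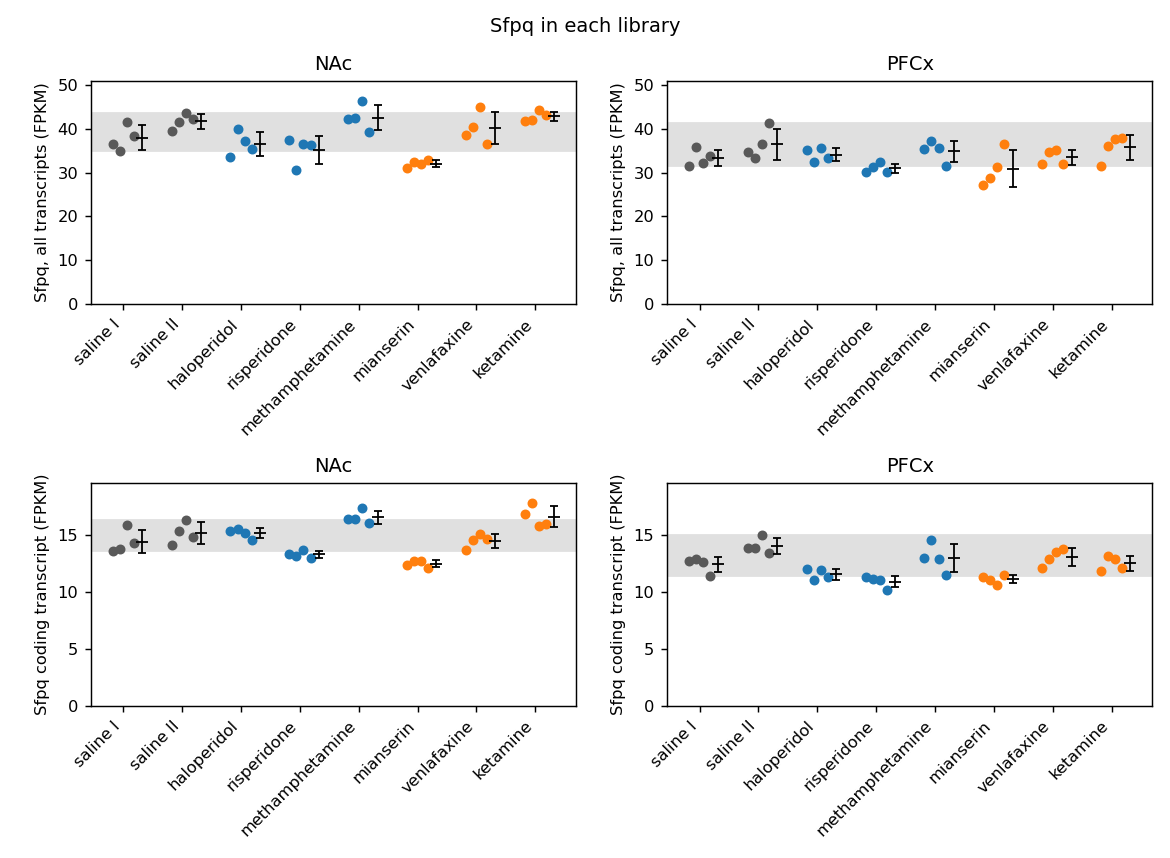
Summed FPKM of Sfpq (top) and FPKM of its coding transcript (bottom) in each library, with points, bars and band as in the plot of Neat1 levels. The 4 NAc mianserin libraries lie below the saline band in both rows, at 30.98 to 32.87 for the sum and 12.1 to 12.8 for the coding transcript.

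Malat1, Nono and Pspc1 were tested in each of the 12 comparisons with limma on log2(summed FPKM + 1), adjusted over 37034 genes. None of the 36 tests passed an adjusted p of 0.05, and 1 had an unadjusted p under 0.05. Over the 12 comparisons 0.75% of all tests passed and 14.4% had an unadjusted p under 0.05. The share of all genes that passed in the NAc was 0.721% after haloperidol, 0.729% after risperidone, 0.194% after methamphetamine, 1.84% after mianserin, 1.83% after venlafaxine and 1.97% after ketamine. In the PFCx it was, in the same order of drugs, 0.162%, 0.51%, 0.351%, 0.667%, 0.0054% and 0.0162%. With saline of the same sample set as the only control, none of the 36 passed and 1 had an unadjusted p under 0.05. The drug effect did not pass the test of a difference between the tissues in any of 18 tests, with a lowest adjusted p of 0.52 and none with an unadjusted p under 0.05. Of all genes 0.0405% passed this test for haloperidol, 0% for risperidone and methamphetamine, 0.119% for mianserin, 0.0513% for venlafaxine and 0.313% for ketamine.

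Malat1 had the narrowest intervals. Its log2 differences from saline ranged from -0.07 to 0.07, and the 95% intervals of all 12 comparisons lay within -0.17 and 0.17. After mianserin in the NAc, where long Neat1 was high, the Malat1 sum was 1572 to 1632 with a mean of 1603 ± 24.6 (SD, n = 4), against 1432 to 1662 after saline, a log2 difference of 0.07 (95% interval -0.02 to 0.16, limma, adjusted p = 0.39). After haloperidol the NAc sum was 1417 to 1637, a log2 difference of -0.01 (limma, adjusted p = 0.89). The main transcript ENSMUST00000172812 made up most of the sum, with a mean FPKM of 833 (NAc) and 707 (PFCx) after saline.

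The PFCx saline sets differed for Malat1. The sum was 1197 to 1285 in saline I and 1415 to 1467 in saline II, without overlap, as for 13.3% of all genes. All 6 Malat1 differences in the PFCx changed sign with saline of the same sample set, as did 2 of 6 in the NAc. Against saline I the PFCx difference was 0.04 after haloperidol, where it had been -0.07, and 0.09 after methamphetamine, where all 4 libraries lay above saline I, as for 1.58% of all genes. Against saline II it was -0.04 after mianserin, -0.08 after venlafaxine and -0.08 after ketamine. None of these passed (limma, lowest adjusted p 0.47). Of all transcripts 10.2% had a gap between the PFCx saline sets, among them ENSMUST00000173314 and ENSMUST00000173523. ENSMUST00000173314, a spliced model of 556 bases near the end of the gene, was at 233 to 252 in saline I and 347 to 411 in saline II. ENSMUST00000173523, a model of 656 bases near the start, was at 1.39 to 3.36 in saline I and at 18.3 to 20.2 in saline II, and 0.672 to 15.3 after the drugs. The PFCx libraries of saline II thus stood apart from those of every drug for this model. Ketamine in the PFCx passed the test for it against saline II alone, with a log2 difference of -1.66 (limma, adjusted p = 0.033), and against all 8 saline libraries the difference was -0.39 (adjusted p = 0.92). With same-set saline as the only control, between 0% and 0.916% of all transcripts passed in the 12 comparisons.

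Nono encodes a partner of SFPQ, and its log2 differences from saline ranged from -0.21 to 0.11. The widest was that of risperidone in the PFCx, where the sum was 16.2 to 18.4 with a mean of 17.0 ± 0.996 (SD, n = 4). The PFCx saline libraries were at 16.2 to 18.2 in saline I and 18.3 to 25.6 in saline II, without overlap, as for 13.3% of all genes. The difference of -0.21 (95% interval -0.47 to 0.04, limma, adjusted p = 0.45) therefore shrank to -0.01 against saline I. After mianserin the sum was 19.2 to 22.0 (NAc) and 16.7 to 25.1 (PFCx), with log2 differences of 0.07 and 0.02, or 0.06 and -0.19 against saline II. Of the 6 differences of Nono in the PFCx 4 changed sign with saline of the same set, and none in the NAc. The coding transcript ENSMUST00000033673, at chrX:101429555-101448591, averaged 12.4 FPKM over all NAc libraries and 12.2 over all PFCx libraries. The retained-intron transcript ENSMUST00000126019 was at 0.158 to 0.714 after mianserin in the PFCx, a log2 difference of -0.50 (limma, adjusted p = 0.22). Against saline II, where its mean was 1.37 ± 0.276, the difference of -0.73 passed (adjusted p = 0.012), whereas saline I had a mean of 0.718 ± 0.163. With same-set saline as the only control, 0% to 0.916% of all transcripts passed, depending on the comparison.

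Pspc1 encodes the remaining protein of the family, and its log2 differences ranged from -0.22 to 0.16. The lowest unadjusted p of its 12 tests was that of ketamine in the PFCx, where the sum was 7.77 to 10.2 with a mean of 9.28, against 9.09 to 12.05 after saline. The log2 difference was -0.22 (95% interval -0.43 to -0.01, limma, adjusted p = 0.59). After methamphetamine in the PFCx 3 of 4 libraries lay above saline, with a log2 difference of 0.16 (adjusted p = 0.67). After mianserin the differences were -0.08 (NAc) and -0.19 (PFCx), with adjusted p of 0.71 and 0.59. Against saline II they were -0.17 and -0.19 (limma, adjusted p = 0.79 and 0.55), and over the 12 comparisons the same-set differences of Pspc1 ranged from -0.22 to 0.16, with 1 change of sign. The main coding transcript is ENSMUST00000022507, at chr14:56722441-56778316, which averaged 4.96 FPKM over all NAc libraries and 5.59 over all PFCx libraries.

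At the level of transcripts, none of the 192 tests on the 16 transcripts of Malat1, Nono and Pspc1 passed in limma, and 16 had an unadjusted p under 0.05. Of all transcript tests 0.15% passed and 9.67% had an unadjusted p under 0.05. In the NAc the share of transcripts that passed was 0.188% after haloperidol, 0.16% after risperidone, 0.051% after methamphetamine, 0.504% after mianserin, 0.0579% after venlafaxine and 0.2% after ketamine. In the PFCx it was 0.0232%, 0.158%, 0.108%, 0.351%, 0.00116% and 0.00347% in that order.

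**Figure D5:**
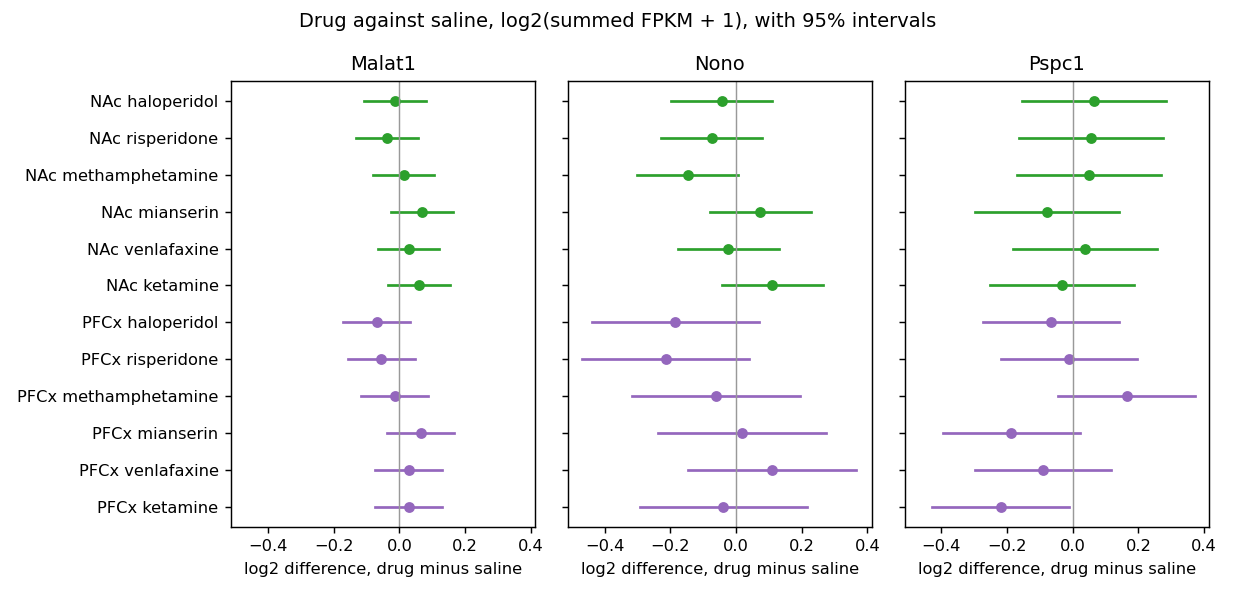
Log2 difference between each drug and saline on the log2(summed FPKM + 1) scale for Malat1, Nono and Pspc1, with points for the estimates and lines for the 95% intervals of limma (green NAc, purple PFCx). The Malat1 estimates lie between -0.07 and 0.07, and the interval of Pspc1 after ketamine in the PFCx, -0.43 to -0.01, is the only one of the 36 that does not include 0.

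The other proteins found in paraspeckles were examined as a list of 25 genes, all of which passed the filter. None of the 300 tests passed in limma, and 42 had an unadjusted p under 0.05, of which 18 were higher and 24 lower than saline. The share of the list with such a p was close to the 14.4% of all gene tests, of which 0.75% passed. The median log2 difference of the list lay between -0.05 and 0.03 in the 12 comparisons, and it was -0.05 after mianserin in the NAc, where the median of all genes was 0.04. The lowest adjusted p were those of Ewsr1, Hnrnpa1, Hnrnph1 and Ubap2l, all in the NAc. Ewsr1, an RNA-binding protein of the FET family, had an FPKM of 56.0 ± 2.39 (SD, n = 4) after ketamine and 48.1 ± 3.64 (n = 8) after saline (limma, adjusted p = 0.055). The splicing regulator Hnrnpa1 was at 15.97 ± 2.03 after haloperidol and 19.7 ± 2.16 after saline (limma, adjusted p = 0.066). Hnrnph1, another splicing regulator, was at 40.4 to 48.2 after methamphetamine and 31.2 to 37.1 after saline (limma, adjusted p = 0.082). Ubap2l was at 21.2 ± 1.08 after venlafaxine and 18.98 ± 1.53 after saline (limma, adjusted p = 0.094). With the replicate number as a block Hnrnph1 and Ewsr1 passed (limma, adjusted p = 0.036 and 0.043). With saline of the same set as the only control the adjusted p in limma was 0.29 for Ewsr1, 0.66 for Hnrnpa1, 0.31 for Hnrnph1 and 0.89 for Ubap2l.

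In the same list 5 genes passed as higher and 3 as lower in the NAc than in the PFCx after saline, 8 of 25, whereas 45.7% of all genes passed. Rbmx, an RNA-binding protein of splicing, was higher in the NAc by 0.76 (log2, limma, adjusted p = 1.3e-07), and Fam98a was lower with -0.39 (adjusted p = 2.8e-05). Both were named after their values were seen, as the lowest adjusted p in each direction.

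Of 10 genes for nuclear speckle proteins, the bodies that Malat1 marks, 2 passed in 1 comparison each, both in the NAc and both lower than saline. Srsf2, a splicing factor of the SR family, was at 12.7 ± 1.98 (SD, n = 4) after mianserin and 16.9 ± 1.24 (n = 8) after saline, a log2 difference of -0.39 (SE 0.077, limma, adjusted p = 0.0086). In this comparison 1.84% of all genes passed. U2af2, which binds the 3′ splice site, was at 11.3 ± 1.09 after venlafaxine and 14.7 ± 1.96 after saline, with -0.34 (SE 0.085, limma, adjusted p = 0.042), where 1.83% of all genes passed. Neither passed against saline II alone, where the adjusted p was 0.17 for Srsf2 and 0.78 for U2af2. Of the 120 tests 17 had an unadjusted p under 0.05, a share of 14.2% against 14.4% of all gene tests. Son, a core protein of speckles, was at 49.5 ± 0.906 after venlafaxine and 44.9 ± 2.32 after saline (limma, adjusted p = 0.072), and Acin1 at 14.9 ± 1.15 after mianserin and 17.1 ± 1.40 after saline (limma, adjusted p = 0.11). Son passed with no filter (limma, adjusted p = 0.047) and after rescaling to the 75th percentile (0.036), and had an adjusted p of 0.89 against saline II alone. After saline 6 of these 10 genes passed as higher and 2 as lower in the NAc than in the PFCx, where 45.7% of all genes passed.

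Among 22 genes within 100000 bases of Neat1 or Malat1, 20 passed the filter and none passed in 240 limma tests, while 23 had an unadjusted p under 0.05. These are 9.58% of the tests, against 14.4% of all gene tests, of which 0.75% passed. Of the 22 genes, Gm27533, Gm27505 and Gm28006 lie within Neat1, and Gm20417, Gm27694 and Gm37376 within Malat1. They are therefore not flanking genes. The lowest adjusted p were all after venlafaxine in the NAc. Sssca1 was at 2.24 to 3.56 against 3.11 to 7.003 after saline (limma, adjusted p = 0.054), and Cdc42ep2 at 1.04 to 1.34 against 1.37 to 2.50 (limma, adjusted p = 0.081). Ltbp3 was at 1.41 ± 0.150 against 1.77 ± 0.255 (limma, adjusted p = 0.11). With saline II as the only control the adjusted p in limma was 0.90 for Sssca1, 0.92 for Cdc42ep2 and 0.93 for Ltbp3. The log2 difference of Sssca1 was -0.61 against all saline libraries and -0.28 against saline II. After mianserin, where long Neat1 was high, the median log2 difference of these neighbours was -0.02 (NAc) and -0.01 (PFCx). The medians of all genes in these comparisons were 0.04 (NAc) and -0.03 (PFCx).

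The genes most like the members over the 64 libraries were ranked by Pearson's r of log2(summed FPKM + 1), centred on the mean of each tissue and sample set, over 14502 genes that averaged 1 FPKM or more in each tissue. Libraries of a drug share that drug, so these correlations are descriptions. For summed Neat1 the highest r were Dusp5 with 0.74, Csrnp1 with 0.71, Pim3 with 0.68, Dusp1 with 0.68 and Junb with 0.67. For the long transcript, a choice made after the values were seen, they were Gm37728 with 0.80, Txnip with 0.78, Pim3 with 0.76, Ddit4 with 0.76 and Sgk1 with 0.75. For Sfpq they were Kcnq1ot1 with 0.73, Gm38372 with 0.72, RP23-83P5.5 with 0.71, Clk1 with 0.70 and Gm36989 with 0.70. For Malat1 the highest were lower, with 0.55 for Utp15, 0.54 for Gm10025, 0.53 for Bhlhb9, 0.53 for Gm37138 and 0.51 for C920009B18Rik.

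Among the members themselves, long Neat1 and Sfpq had r = -0.65 over the 64 libraries with the same centring. Both genes were chosen because a transcript of each differed between drugs and saline in these libraries. Their r is therefore a description and lends no support to a link. Without the 8 mianserin libraries r was -0.39, and with each group of drug and tissue centred on its own mean it was -0.05, so the opposite levels lay between the groups and not between libraries of 1 group. Long and short Neat1 had r = 0.32, and long Neat1 and Malat1 r = 0.08. Sfpq and Nono had r = 0.32, and r = 0.55 within groups.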

How the data were processed

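RNA of 64 libraries from mouse NAc and PFCx was ribo-depleted and sequenced single-end on an Ion Proton. According to the methods and the submitters' processing notes, the authors aligned the reads with TopHat2 2.0.1 and Tmap and estimated transcript levels with Cufflinks 2.2.1 against Ensembl gene models (GRCm38). The files that the authors deposited hold FPKM with confidence bounds and read coverage, a signal of reads per base that is not scaled to depth, for 112714 transcripts per library. The tables hold no counts, so no count test was run. For depth, coverage was divided by FPKM in transcripts that had 2000 bases or more and 5 FPKM or more, and the median was taken. Cufflinks divides reads shared by isoforms, so errors of isoforms of a gene are linked.

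FPKM were summed per gene. Tests used limma 3.58.1 in R 4.3.3 on log2(FPKM + 1), a scale that shrinks fold changes at low levels, for genes or transcripts averaging 0.1 or more in the NAc or the PFCx, with Benjamini-Hochberg adjustment over all of them and a threshold of 0.05. Drugs were compared with all 8 saline libraries of the tissue. Replicates are separate libraries of the labels. The labels give a replicate number and do not say whether the replicates are separate mice, so p-values measure the spread between libraries. Permutation tests were exact and two-sided, with scipy 1.17.1 in Python 3.11.15. The limma step was tested on simulated data. Transcript types, exons and sequences came from GENCODE vM21, of the same build as the files.

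The members and lists were chosen with earlier results of these data known. Named genes were the 5 members, the 4 genes of each list with the lowest adjusted p in any comparison, and the 5 genes most like Neat1, Sfpq and Malat1. A result that this rule names is not reported here. As alternatives, the pseudocount was set to 0.1 and the filter was dropped or raised to a mean of 1. Further ones were rescaling to the 75th percentile, a mean-variance trend, the replicate number as a block, saline of the same sample set only, and leaving out each library. The same-set comparison with the block was added after seeing the data. The sample sets were read from the number of transcripts above 0 in the NAc.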

Additional observations from a re-analysis of the deposited data

Results flagged for a closer look

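In 7 of 96 groups of 4 libraries, 6 measures in each of 16 groups, the highest or lowest library stood apart from the other three by more than Dixon's critical value. Chance flags about 1 in 20 groups. Short Neat1 was low in NAc mianserin replicate 1, at 2.36 against 3.18 to 3.35, and in PFCx risperidone replicate 1, at 2.42 against 3.05 to 3.16. The Malat1 sum was low in NAc methamphetamine replicate 1, at 1421 against 1573 to 1605, and high in PFCx mianserin replicate 2, at 1466 against 1382 to 1389. NAc risperidone replicate 2 stood apart for both Sfpq and Pspc1, with the lowest Sfpq sum of its group, 30.6 against 36.4 to 37.5, and the highest Pspc1 sum, 10.6 against 8.39 to 8.56. The Pspc1 sum was low in PFCx saline II replicate 2, at 9.09 against 11.4 to 11.9.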

How the results depend on the processing

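Malat1, Nono and Pspc1 passed in none of the 12 comparisons, and the difference between the tissues in none of 18 tests, under each of the 8 alternatives and without any single library. For the 16 transcripts of these genes, 2 tests passed with saline of the same sample set only and 3 with that control and a replicate block together. For the other paraspeckle protein genes 1 test passed with no filter, 1 with a mean FPKM of at least 1, 3 after rescaling to the 75th percentile and 2 with the replicate block (Hnrnph1 and Ewsr1), against 0, and 0 to 1 without single libraries. For the nuclear speckle genes 0 tests passed with the same sample set, 1 with a mean FPKM of at least 1, 0 with the same sample set and block, 3 with no filter and 3 after rescaling to the 75th percentile, both times with Son, against 2, and 1 to 4 without single libraries. The low values came from the loss of Srsf2 without NAc mianserin replicate 4 (limma, adjusted p = 0.059) and of U2af2 without any saline I library or venlafaxine replicate 1, 3 or 4 of the NAc (highest adjusted p 0.19), and 4 passed without NAc saline II replicate 3. Over all settings the adjusted p ran from 0.00095 to 0.18 for Srsf2 and from 0.018 to 0.78 for U2af2, which also missed the threshold with a mean FPKM of at least 1 (0.053). For the neighbours 1 test passed with a pseudocount of 0.1, 1 with no filter, 1 with the trend and 1 with the same sample set and block, against 0, and 0 to 3 without single libraries, the most without NAc saline II replicate 1. Over all genes, saline of the same sample set as the only control changed the number called from 676 to 3 for venlafaxine and from 681 to 101 for mianserin in the NAc, and from 6 to 559 for ketamine and from 247 to 744 for mianserin in the PFCx. The cause was not tested.

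Of the 5 members 3 passed the tissue test with the trend and 3 within saline II, and 4 under the other alternatives and without each library. The difference of the short Neat1 share lay between 7.13 and 8.21 points without single libraries. The number of comparisons with long Neat1 wholly outside saline was 3 after rescaling and 4 to 5 without single libraries, and for summed Sfpq 1 to 2, with 2 without PFCx mianserin replicate 4 or PFCx risperidone replicate 3.

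The labels give replicate numbers in every group. Same-numbered libraries deviated from their groups with an average r of 0.096 (NAc) and 0.10 (PFCx), and 62 and 48 of 112 pairs were over 0.1. For libraries with different numbers the average r was lower, at -0.032 (NAc) and -0.030 (PFCx). The numbers were not taken to pair the libraries, since the labels do not say that they do. However, 23 of 32 NAc and 21 of 32 PFCx libraries correlated best with their own number. This is more than if each of the 4 numbers were equally likely. The replicate number thus left a structure in the data that the main fits do not model. With the replicate block the short share differed by 7.60 points (exact sign-flip permutation p = 0.0078), 4 members passed the tissue test, and 0 tests passed for Malat1, Nono and Pspc1. Estimated depth of 1.52 to 3.26 gigabases limits the rarer transcripts, such as ENSMUST00000174829 of Neat1, whose FPKM was under 1 in all libraries.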
